A study of Mus musculus with 6 samples.

Results

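Thrombospondins and the other matricellular proteins are secreted into the extracellular matrix but act there mainly as regulators, binding collagen, growth factors and cell surface receptors rather than bearing load. In the adult heart most of them are kept low and are made more strongly by fibroblasts and other stromal cells after infarction, pressure overload or ageing. Their transcripts are therefore commonly read beside collagen genes as a sign of how active the cardiac stroma is.

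The 10 genes described here were taken as a listed set from the 54232 genes in the count tables. They are the thrombospondins *Thbs1*, *Thbs2*, *Thbs3* and *Thbs4*, the collagen-associated proteins *Postn*, *Sparc* and *Tnc*, the phosphoprotein *Spp1*, and the sushi-repeat proteins *Srpx2* and *Srpx*. Each symbol matched 1 Ensembl gene, and all 10 passed the filter on low counts.

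RNA came from the heart ventricle of wild-type (WT) C57BL/6J mice, in 2 groups of 3 that were all on western diet (WD), a high-fat, high-sucrose diet with added cholesterol. After 15 weeks of diet one group was needle-fed Tributyrin, a glycerol ester that releases butyrate, at 5 g/kg body weight and the other was given vehicle, called PBS in the sample labels. Feeding ran for 3 weeks in a pattern of 2 days on and 2 days off, and no lean group was sequenced, so the values say how WD + Tributyrin differed from WD + vehicle and nothing about the diet itself. Age and sex of the single mice are not in the labels. *Xist*, which is transcribed from the inactive X chromosome, had at most 6 reads in a library and the Y-linked *Ddx3y* at least 1571, so the libraries did not differ in sex. The libraries held 20369746 to 32734485 reads on genes. The tissue is a mixture of cells, and in such bulk RNA fewer cells of a type and less RNA per cell cannot be told apart.

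Across the set, 7 genes were lower and 3 were higher with Tributyrin, and *Thbs1* and *Srpx2* were the pair whose groups did not overlap, both lower. The median log2 fold change of the 10 genes was -0.39, against -0.00129 over the 14133 genes tested, of which 50.4% were lower. By the quasi-likelihood test of edgeR, adjusted after Benjamini and Hochberg, 0 members passed an FDR of 10%, where the share of all genes past it was 0.0%, so none of the differences below stood out of the whole table. At an unadjusted p under 0.05 edgeR had 2 members, both lower, where 4.25% of all genes reached that level and 2.28% did so in this direction. There were also 2 members by limma-voom (4.28% of genes) and 3 by DESeq2, with its default trend (3.04% of the genes it gave an adjusted p) as with a local trend (4.9%). The adjusted p of every member was 0.999 in edgeR. Normalized counts were fully apart between the groups for 2 members, against 8.91% of all genes and 4.65% in the lower direction. *Thbs1* and *Srpx2* were also picked out by the study on these same mice, so their separation here is not independent evidence.

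**Figure D1:**
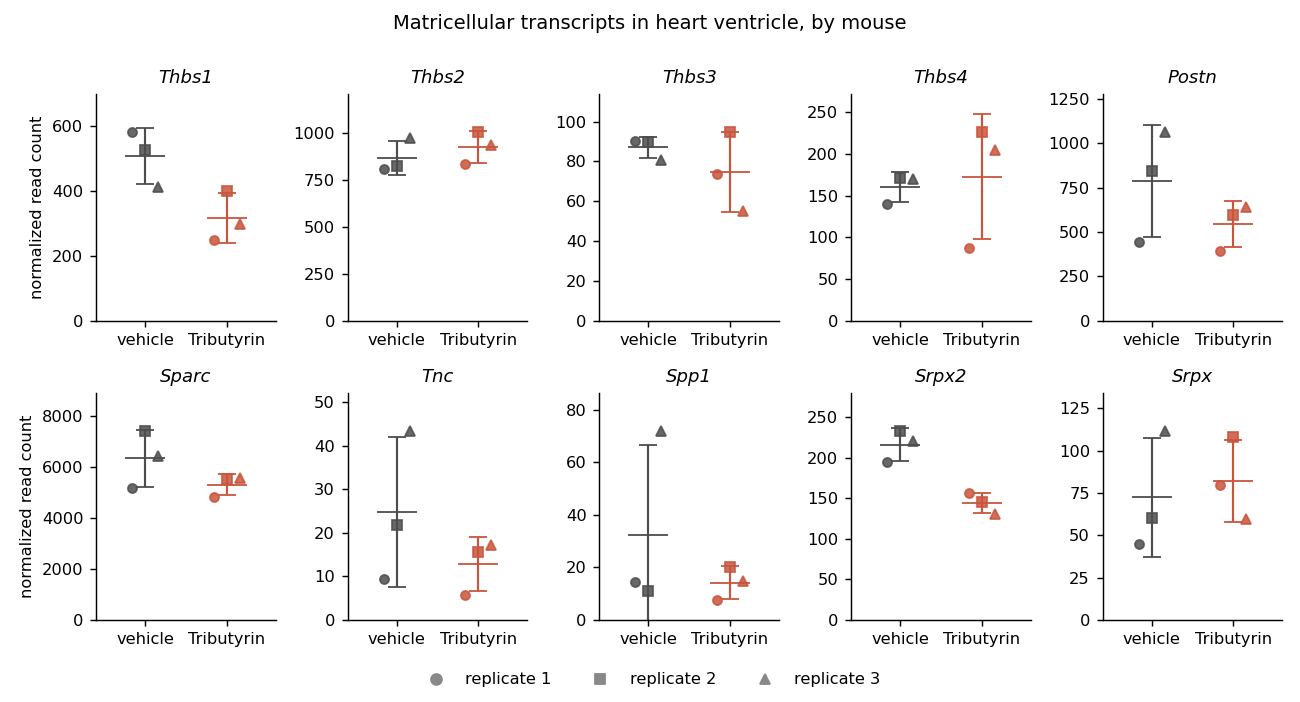
Normalized read counts (reads divided by the size factor of the library, linear axis from 0) of the 10 genes in each mouse, with vehicle in grey and Tributyrin in red, symbols for the replicate number and bars for mean ± SD. The groups are apart for Thbs1 and Srpx2, the highest mouse of Spp1 and of Tnc is vehicle replicate 3, and the lower bar of Spp1 with vehicle is cut at 0.

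*Thbs1* encodes thrombospondin 1, a trimeric glycoprotein that can activate latent transforming growth factor beta and restrains angiogenesis and nitric oxide signaling through CD36 and CD47. The gene (ENSMUSG00000040152) lies on the plus strand of chromosome 2 from 118111876 to 118127133 (GRCm38), with 6073 bases of exons. The vehicle mice had 583.1, 526.5 and 413.7 normalized read counts and the Tributyrin mice 248.7, 399.3 and 299.4. Every Tributyrin mouse lay below every vehicle mouse, but the highest Tributyrin mouse, replicate 2, was close to the lowest vehicle mouse, replicate 3. The means were 507.8 ± 86.2 and 315.8 ± 76.6 (SD, n = 3), a fitted 0.622-fold level with Tributyrin (95% interval 0.474 to 0.816). On the log2 scale this was -0.68 (standard error 0.18), with an unadjusted p of 0.00286 and an adjusted p of 0.999 by edgeR. A two-sided exact permutation test gave p = 0.1, the smallest that 3 mice against 3 allow.

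Among the counts of the 4 thrombospondins, *Thbs1* took 36.0%, 32.7% and 25.3% in the vehicle mice and 20%, 23.1% and 20.1% in the Tributyrin mice. That share did not overlap between the groups, but it is built on the same *Thbs1* counts and is not a separate result. *Thbs1* shares 208 exonic bases with *Gm29233* on the opposite strand, a gene with 0 reads here. The call on *Thbs1* depended on the tool and the filter. DESeq2 gave an adjusted p of 0.146 under its default dispersion trend, where 0.0835% of genes passed 10%, and 0.0111 under a local trend, where 0.259% did. With every gene that had a read kept in, edgeR gave 1.08e-05, where 0.653% of genes passed 10% and 4.6% were under 0.05 without adjustment.

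*Thbs2* encodes the closest relative of thrombospondin 1, which binds matrix metalloproteinases and is needed for normal collagen fibrils. It lies on the minus strand of chromosome 17 from 14694235 down to 14665500. Its normalized counts were 805.5, 823.5 and 971.5 with vehicle and 834.1, 1006 and 934.9 with Tributyrin, so the groups overlapped. The log2 fold change was 0.10 (standard error 0.10, 95% interval -0.13 to 0.32), or 0.916-fold to 1.25-fold. With the interval of *Thbs1* at -1.08 to -0.29, the intervals of these closely related genes did not meet, but the difference between them was not tested.

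*Thbs3* and *Thbs4* encode thrombospondins that assemble as pentamers, and *Thbs4* in muscle is known for a role in the endoplasmic reticulum, where it binds ATF6. *Thbs3* (chromosome 3, 89215180 to 89226837) had 90.43, 89.95 and 80.75 normalized counts with vehicle and 73.87, 95.03 and 55.06 with Tributyrin. The Tributyrin mice spanned the vehicle range, and on the log2 scale the difference was -0.21 (standard error 0.21), or -0.43 without Tributyrin replicate 2 and -0.04 without replicate 3. For *Thbs4* (chromosome 13, 92751590 to 92794818) the values were 139.3, 171.4 and 170.2 with vehicle and 87.0, 226.6 and 204.2 with Tributyrin. Here the Tributyrin group held both the lowest and the highest mouse. Its log2 fold change of 0.10 (standard error 0.28) was -0.16 without Tributyrin replicate 2, -0.03 without replicate 3 and 0.43 without replicate 1. The 12 genes of protein folding in the endoplasmic reticulum listed for comparison, *Atf6* (0.04) among them, had a median of 0.05 on the log2 scale. They ran from -0.05 for *Creld2* and -0.03 for *Pdia6* to 0.10 for *Xbp1* and 0.12 for *Manf*. At an unadjusted p under 0.05 there were 0 of 12, against 4.25% of all genes. *Thbs3* shares 318 exonic bases with *Mtx1* on the opposite strand, or 6.59% of its exonic length, and the strand setting of the counting is not given in the sources used here.

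*Srpx2* encodes a secreted sushi-repeat protein that binds the urokinase receptor and is linked to cell migration and synapse formation. The gene (ENSMUSG00000031253) lies on the X chromosome from 133908426 to 133932446, plus strand. Normalized counts were 194.4, 233.4 and 221.1 with vehicle and 156.2, 145.3 and 130.8 with Tributyrin. All Tributyrin mice lay below all vehicle mice. Means were 216.3 ± 19.96 and 144.1 ± 12.7 (SD, n = 3), which is a fitted 0.667-fold level (95% interval 0.547 to 0.814). The log2 fold change was -0.58 (standard error 0.13), with an unadjusted p of 0.00105, rank 12 of the 14133 genes, and an adjusted p of 0.999 by edgeR. Among the members it had the smallest spread between mice of a group, an SD of 0.13 on the log2 scale, against 0.30 for *Thbs1*. That of *Srpx2* was larger than in 29.99% of the genes at a similar level and that of *Thbs1* larger than in 95.1%.

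With any mouse left out, the log2 fold change of *Srpx2* stayed between -0.65 and -0.52 and the unadjusted p between 0.00122 and 0.00670. The adjusted p was 0.374 by DESeq2 with its default trend, 0.0739 with the local trend and 0.0292 in edgeR when no gene with a read was filtered out. *Plaur*, the urokinase receptor gene, had a log2 fold change of 0.23 (standard error 0.31) and between 18 and 64 reads in a library.

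*Srpx* encodes the related X-linked sushi-repeat protein, also known as a gene switched off in transformed cells. Its values were 44.7, 60.5 and 111.8 with vehicle and 79.5, 107.8 and 59.7 with Tributyrin. The groups overlapped widely, and vehicle held both the lowest and the highest mouse. The log2 fold change was 0.22 (standard error 0.33), and it was -0.03 without Tributyrin replicate 2 and -0.02 without vehicle replicate 1. *Srpx* (10037977 to 10117709, minus strand) shares 208 exonic bases with *Rpgr* on the same strand, 7.84% of its exonic length. Reads in that stretch could have been set aside as ambiguous by the counting. The 95% intervals were -0.50 to 0.95 for *Srpx* and -0.87 to -0.30 for *Srpx2*, and the difference between the pair was not tested.

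The 250 bases upstream of the annotated start are shown for *Srpx2*, which was lower, for *Postn*, which was lower on average but overlapped, and for *Thbs2*, which was not lower, so that the letters before genes with different readouts can be read beside each other. RefSeq windows on GRCm38.p6 matched 9 of the 10 members, with no entry for *Thbs1*. Capitals mark matches on either strand to the AP-1 motif TGANTCA, the TATA motif TATAAA, the GC box GGGCGG and CCAAT, which did not overlap each other in these windows.
Srpx2, chrX:133908175-133908424, plus strand: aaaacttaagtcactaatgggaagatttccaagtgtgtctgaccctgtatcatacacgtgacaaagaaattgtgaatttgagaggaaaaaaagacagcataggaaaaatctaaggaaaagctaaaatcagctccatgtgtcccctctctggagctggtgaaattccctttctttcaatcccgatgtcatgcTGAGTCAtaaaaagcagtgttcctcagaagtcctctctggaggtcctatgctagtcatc
Postn, chr3:54360857-54361106, plus strand: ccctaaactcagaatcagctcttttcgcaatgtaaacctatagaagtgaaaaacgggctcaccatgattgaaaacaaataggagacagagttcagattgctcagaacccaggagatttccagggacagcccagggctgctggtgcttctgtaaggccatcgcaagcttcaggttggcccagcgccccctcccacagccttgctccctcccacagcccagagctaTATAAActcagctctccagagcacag
Thbs2, chr17:14694263-14694512, minus strand: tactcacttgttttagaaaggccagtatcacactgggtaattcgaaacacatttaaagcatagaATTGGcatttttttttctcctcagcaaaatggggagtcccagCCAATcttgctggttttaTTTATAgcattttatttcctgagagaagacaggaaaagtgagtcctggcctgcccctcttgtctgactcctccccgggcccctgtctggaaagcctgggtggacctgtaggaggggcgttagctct

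In *Srpx2* the AP-1 match began 59 bases before the start, and none of the other 8 windows held one. AP-1 matches were present in 6.75% of the 32851 promoter windows of this length. *Postn* had a TATA match that began 26 bases before the start, and *Thbs2* one at 126 bases, on the opposite strand, where 12.4% of windows hold a match. CCAAT was found at 186 and 144 bases in *Thbs2*, and is held by 33.8% of windows, while the GC box, held by 32.7%, was in none of these 3 windows. These are matches of letters and say nothing of which factors were bound in the heart.

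*Sparc* encodes the collagen-binding glycoprotein osteonectin, which helps procollagen leave the cell and assemble into fibrils. It lies on the minus strand of chromosome 11 from 55423183 down to 55394500. Normalized counts were 5193, 7430 and 6434 with vehicle and 4830, 5529 and 5585 with Tributyrin. Vehicle replicate 1 lay inside the Tributyrin range, so the groups overlapped. The means of 6352 ± 1121 and 5315 ± 421 (SD, n = 3) gave a log2 fold change of -0.26 (standard error 0.12, 95% interval -0.52 to 0.01). The unadjusted p was 0.0555 in edgeR, and without vehicle replicate 1 it was 0.00451 at a log2 fold change of -0.38. Without vehicle replicate 2 the log2 fold change was -0.13 and the unadjusted p 0.282. Without Tributyrin replicate 1 they were -0.19 and 0.176, so single mice of either group changed how far *Sparc* stood from 0.

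*Postn* encodes periostin, a marker of activated fibroblasts that binds collagen and integrins. It lies on chromosome 3 from 54361109 to 54391037, plus strand. The vehicle mice had 445.9, 847.5 and 1067 normalized counts and the Tributyrin mice 395.5, 596.7 and 641.2. Vehicle replicate 1 was low and lay within the Tributyrin range, and the other two vehicle mice were above every Tributyrin mouse. The log2 fold change was -0.53 (standard error 0.27), with means of 786.9 ± 315.1 and 544.5 ± 130.9 (SD, n = 3). Without vehicle replicate 1 it was -0.81 and without vehicle replicate 3 it was -0.26, so single vehicle mice moved the size by over 1.5 times each way, and without Tributyrin replicate 1 it was -0.34. The unadjusted p was 0.0781, and it was 0.00141 with the replicate number as a block, where the adjusted p was 0.359 and 0.0142% of genes passed 10%, with 5.17% at an unadjusted p under 0.05.

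*Tnc* encodes tenascin C, an anti-adhesive protein that is nearly absent from healthy myocardium and returns at sites of injury. Only 9, 28 and 35 reads were counted in the vehicle libraries and 6, 17 and 15 in the Tributyrin libraries. *Spp1* encodes osteopontin, made in the heart largely by macrophages and activated fibroblasts, and had 14, 14 and 58 reads with vehicle and 8, 22 and 13 with Tributyrin. In both genes vehicle replicate 3 was the highest mouse and Tributyrin replicate 1 the lowest, and the groups overlapped.

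The log2 fold change of *Tnc* was -0.93 (standard error 0.56) and that of *Spp1* was -1.11 (standard error 0.69), the largest in size of the set and also the least certain. Without vehicle replicate 3 they were -0.33 and 0.17, so the sign of *Spp1* rests on that mouse, and *Tnc* was at -0.56 without Tributyrin replicate 1. The spread between mice of a group was an SD of 0.88 for *Tnc* and 1.06 for *Spp1* on the log2 scale, larger than in 97.5% and 99.0% of genes at a similar level. *Spp1* shares 309 exonic bases, 18.8% of its exonic length, with *Gm42793* on the same strand, a gene with 0 reads here, so some reads of *Spp1* could have been set aside as ambiguous. *Tnc* lies on chromosome 4 from 63959785 to 64047015 (minus strand), where 176 exonic bases are shared with *8030451A03Rik* on the opposite strand at 0 reads, and *Spp1* on chromosome 5 from 104435118 to 104441050 (plus strand).

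**Figure D2:**
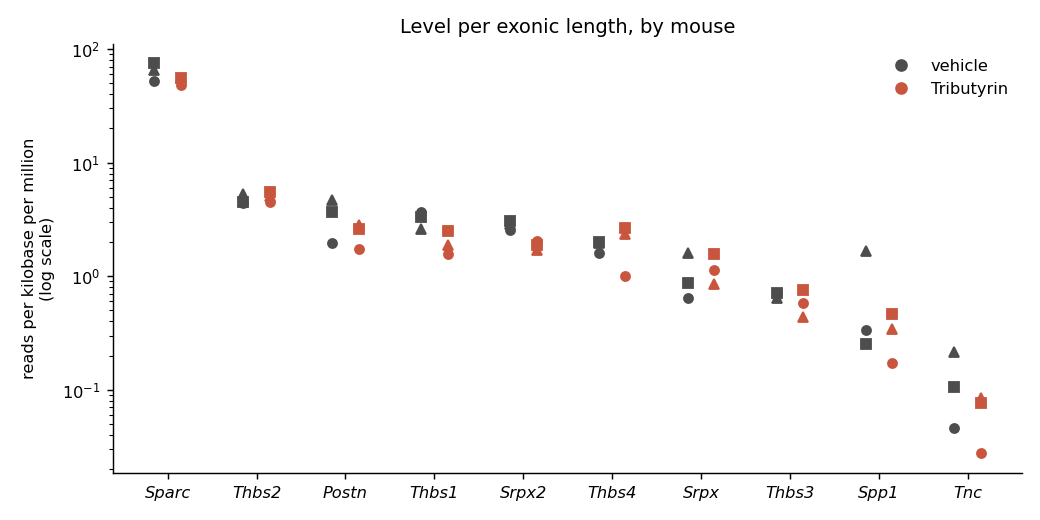
Level of each member per exonic length, in RPKM-type units (reads per kilobase of exon and scaled library size) on a log axis, ordered by the mean of all 6 mice, with 1 symbol a mouse (circle, square and triangle for replicates 1 to 3), vehicle in grey and Tributyrin in red. Sparc, at 48.5 to 74.5, stands apart from the next gene, and the genes from Postn to Thbs4 share overlapping ranges.

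To compare genes with each other, reads were divided by exonic length and by the scaled library size, as an RPKM-type value. *Sparc* was the most abundant at 63.8 ± 11.2 with vehicle and 53.4 ± 4.21 with Tributyrin (SD, n = 3) and supplied between 67.1% and 72.7% of the reads of the set in each library. *Thbs2* followed at 4.71 ± 0.5004 and 5.03 ± 0.475, a level 12.0 times lower than that of *Sparc* as the mean of all mice, and above *Postn* in 6 of 6 mice. Next came *Postn* (3.44 ± 1.38 and 2.38 ± 0.571), *Thbs1* (3.18 ± 0.537 and 1.98 ± 0.484), *Srpx2* (2.82 ± 0.259 and 1.88 ± 0.169) and *Thbs4* (1.85 ± 0.211 and 2.00 ± 0.869). The ranges of neighbours in this run overlapped, and *Thbs1* was above *Srpx2* in 4 of 6 mice, so their order is not fixed by these data.

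The low end held *Srpx* (1.04 ± 0.505 and 1.18 ± 0.351), *Thbs3* (0.686 ± 0.0422 and 0.589 ± 0.159), *Spp1* (0.750 ± 0.793 and 0.327 ± 0.147) and *Tnc* (0.122 ± 0.0847 and 0.0626 ± 0.0306). *Thbs3* was above *Spp1* in 5 of 6 mice, the exception being vehicle replicate 3, and *Spp1* above *Tnc* in 6 of 6. Counted together, the 10 genes took 285.9, 402.5 and 378.8 CPM of the vehicle libraries and 250.7, 310.3 and 284.5 of the Tributyrin libraries, and these ranges overlapped.

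**Figure D3:**
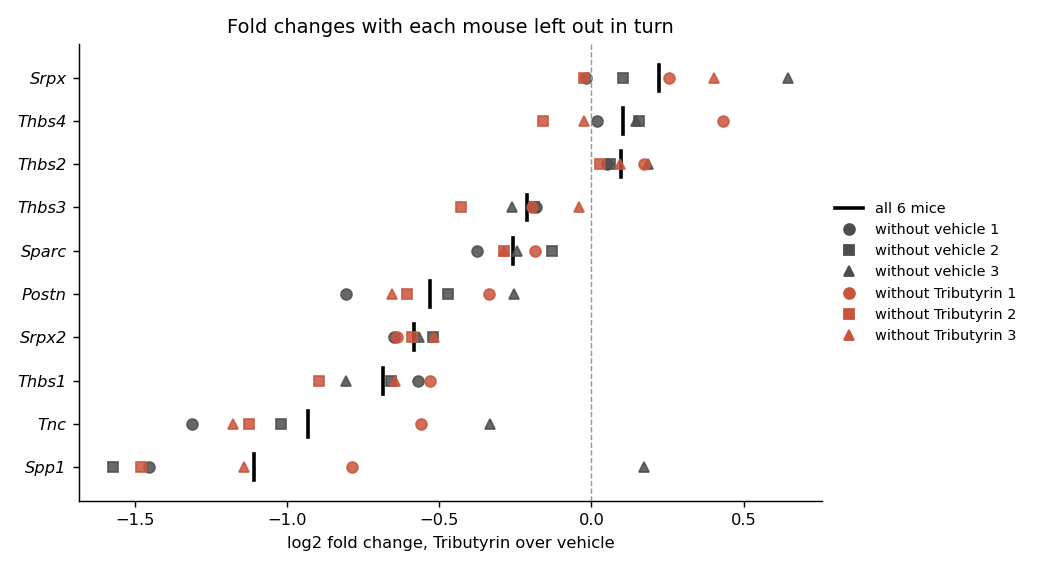
Log2 fold change of each member (Tributyrin over vehicle) with all 6 mice (black bar) and after dropping single mice (symbols, grey where a vehicle mouse and red where a Tributyrin mouse was left out). Srpx2 stays between -0.65 and -0.52 and Thbs1 between -0.90 and -0.53, while Spp1, Thbs4 and Srpx cross 0.

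The other matricellular genes fixed for comparison were 30, of which 23 passed the filter. Their median log2 fold change was -0.13, with 15 lower and 8 higher. Of all genes tested 50.4% were lower, and 2.28% were lower at an unadjusted p under 0.05. In this list 4 had an unadjusted p under 0.05, all lower. These were *Fstl1*, a secreted cardiokine of stromal cells (-0.36, standard error 0.10), *Igfbp7* (-0.27, 0.12), the basement membrane protein fibulin 2 gene *Fbln2* (-0.26, 0.09) and *Ccn1*, an integrin ligand of the CCN family (-0.26, 0.08). None passed an FDR of 10% in edgeR with the filter on low counts. Without it *Fstl1* (adjusted p 0.0188) and *Comp* (0.000594) did, as did *Fstl1* in DESeq2 with a local trend (0.0672). These 2 settings called 0.653% and 0.259% of all genes. The lowest value was that of *Comp*, the fifth thrombospondin, at -0.76 (standard error 0.41), and the highest were *Smoc1* at 0.33 (0.22) and *Ccn4* at 0.18 (0.35). *Comp* had 290.0, 183.0 and 171.5 normalized counts with vehicle and 41.1, 148.0 and 196.2 with Tributyrin, with Tributyrin replicate 1 far below the other mice. Its log2 fold change was -0.32 without that mouse, -0.48 without vehicle replicate 1 and -1.17 without Tributyrin replicate 3. That of *Igfbp7* was -0.14 without Tributyrin replicate 1. *Ccn2*, often used as a readout of transforming growth factor beta, was at -0.07 (0.15).

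**Figure D4:**
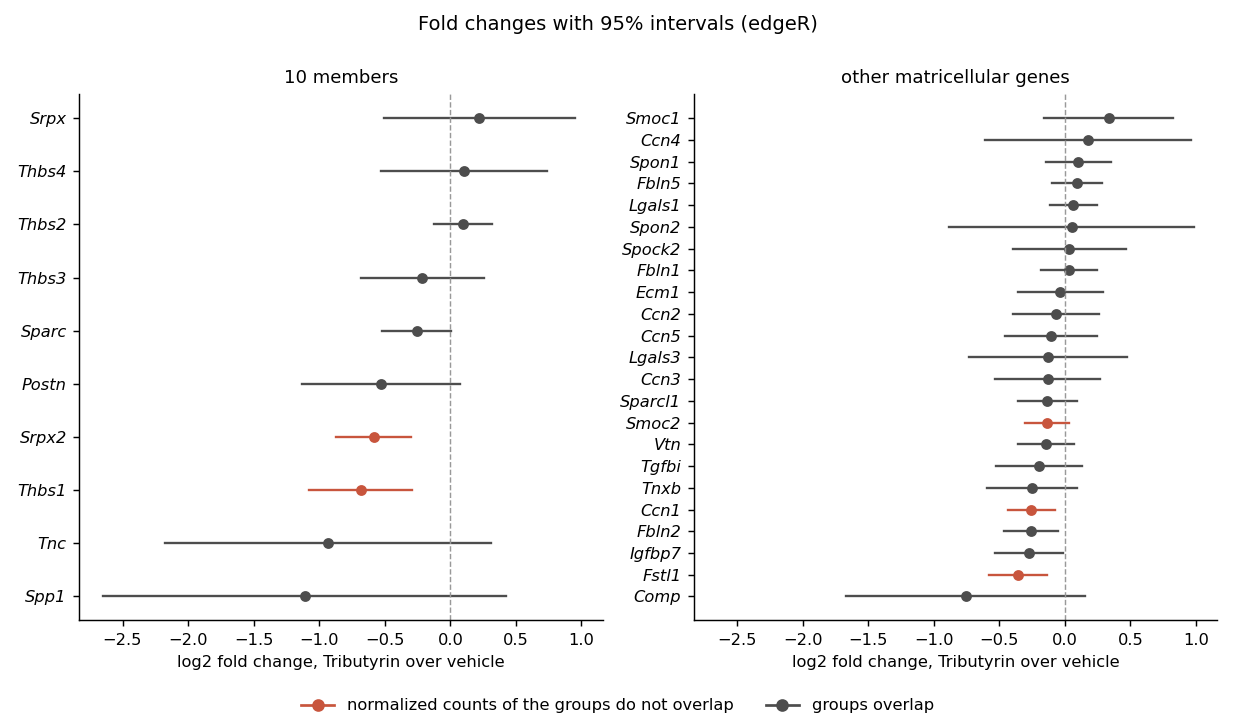
Log2 fold changes (Tributyrin over vehicle) with 95% intervals from edgeR for the 10 members (left) and the 23 other matricellular genes that passed the filter (right), red where the normalized counts of the groups do not overlap. Thbs1 and Srpx2 on the left, and Fstl1, Ccn1 and Smoc2 on the right, are the red genes, and all lie below 0. Over all genes tested, 8.91% do not overlap, 4.65% in the lower direction.

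Receptors and binding partners of these proteins were split evenly, with 13 of 26 higher and 13 lower and a median log2 fold change of -0.02. At an unadjusted p under 0.05, 3 were lower and 1 was higher, against 4.25% of all genes, 2.28% in the lower direction. Lower were *Itgb8*, an integrin subunit that activates latent transforming growth factor beta (-0.72, standard error 0.24), *Itga9*, which pairs with beta 1 integrin to bind tenascin C and osteopontin (-0.48, 0.15), and *Tlr4* (-0.31, 0.13). *Cacna2d1*, a calcium channel subunit to which thrombospondins bind, was at 0.24 (0.10), and *Itga4* had the highest value at 0.29 (0.26). Of the receptors, *Itga9* passed 10% in edgeR without the filter on low counts (adjusted p 9.08e-05), as did 0.653% of all genes. The thrombospondin 1 receptors *Cd36* and *Cd47* were at 0.12 (0.07) and 0.05 (0.07).

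The ligands and responsive genes of transforming growth factor beta, the growth factor that thrombospondin 1 can activate, had a median of -0.14 over 19 genes, with 15 lower and 4 higher. In edgeR with the filter on low counts 0 passed an FDR of 10%. Of the 19 genes, 4 had an unadjusted p under 0.05, all lower, against 2.28% of all genes in this direction. They were *Ltbp2* (-1.19, standard error 0.36), the lysyl oxidase gene *Loxl2* (-0.57, 0.12), *Col1a1* (-0.46, 0.17) and *Col5a1* (-0.40, 0.14). Without the filter 5 genes of the list passed, these 4 and *Col3a1*, and *Loxl2* also did in DESeq2 with a local trend (adjusted p 0.0217). Of all genes, 0.653% and 0.259% passed in these 2 settings, and markers of other tissue that passed are given below. *Ltbp2* was at -0.77 without vehicle replicate 3 and *Col1a1* at -0.73 without Tributyrin replicate 2. *Loxl2* is another gene the study picked on these mice. *Tgfb1*, *Tgfb2* and *Tgfb3* were at -0.14, -0.17 and -0.16, and the direct targets *Smad7* at 0.12 (0.16), *Lox* at 0.12 (0.17) and *Id1* at 0.21 (0.20) had intervals that included 0.

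**Figure D5:**
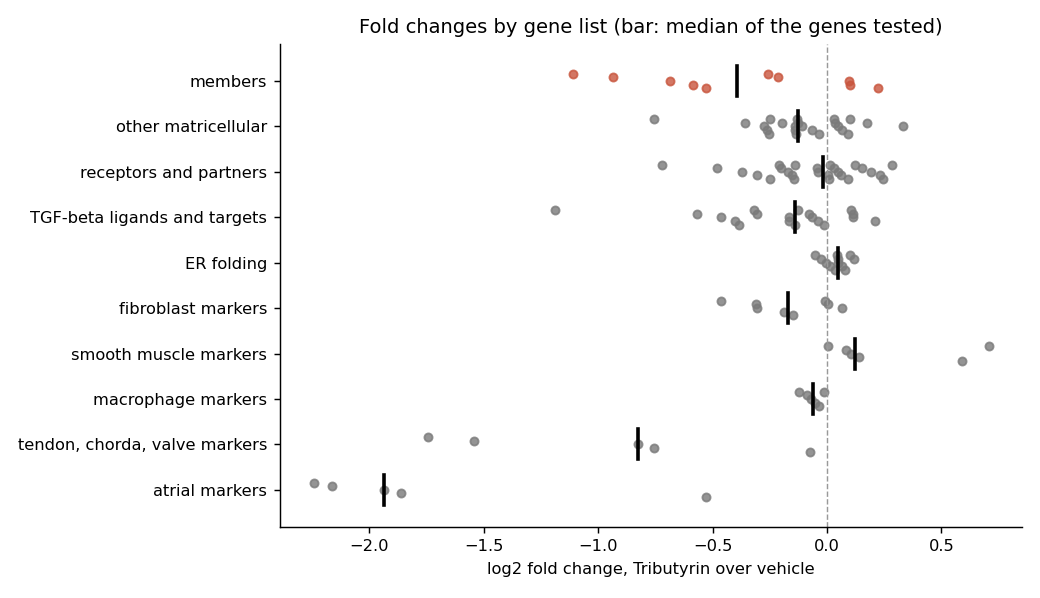
Log2 fold changes (Tributyrin over vehicle) of the genes tested in each fixed list, 1 point a gene, with a black bar at the median. The members (red) have a median of -0.39, the other matricellular genes of -0.13, and the markers of tendon, chorda and valve (-0.83) and of atrium (-1.94) lie lowest.

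Markers of other tissue that a ventricle sample can hold were also lower with Tributyrin. For tendon, chorda and valve, 5 of 6 markers could be tested. All 5 were lower with Tributyrin, and 3 of them had an unadjusted p under 0.05, against 2.28% of all genes in this direction. *Comp*, given above among the other matricellular genes, is 1 of these 5 and is not a separate result here. Summed over the 6 markers, normalized counts were 691.7 to 901.2 with vehicle and 216.0 to 649.3 with Tributyrin, which did not overlap, with Tributyrin replicate 1 the lowest. *Cilp2* had a log2 fold change of -1.74 (standard error 0.48), *Chad* of -1.54 (0.60) and *Fmod* of -0.83 (0.35), whereas *Scx* was at -0.07 (0.21). *Fmod* was at -0.42 without Tributyrin replicate 1 and *Chad* at -2.77 without Tributyrin replicate 3. *Tnmd*, a tenocyte marker, had 0 to 9 reads. In edgeR without the filter on low counts *Chad*, *Cilp2*, *Comp* and *Fmod* passed an FDR of 10%, where 0.653% of all genes did. Without Tributyrin replicate 1 the log2 fold change of *Thbs1* was -0.53 and that of *Srpx2* was -0.64. The marker sums of Tributyrin replicates 2 and 3, at 557.4 and 649.3, were still below every vehicle mouse, so this fit does not remove the difference in markers. The part of such tissue in the values of *Thbs1*, *Srpx2* and *Comp* was not tested.

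By pattern, *Cilp2* was among the 5 genes most like *Thbs1*, with a Pearson r of 0.98 between log2 CPM over the 6 libraries, out of 14132 genes compared. The others were *Ttyh2* (0.99), *St6galnac2* (0.98), *Sbf1* (0.98) and *Tbc1d1* (0.97). With 6 points that include the difference between groups, these values describe the libraries only.

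Atrial markers were also lower with Tributyrin in 5 of 5 genes tested, with a median of -1.94, and their sum ran from 1414 to 4788 with vehicle and from 815.4 to 1687 with Tributyrin. It was high in vehicle replicates 1 and 2, and vehicle replicate 3 lay within the Tributyrin range. By gene that mouse was the lowest of all 6 for *Myl7* (110.6 normalized counts), *Myl4* (246.0), *Sln* (6.21) and *Mybphl* (4.97), and the highest for *Nppa* (1046). The log2 fold changes were -1.94, -1.86, -2.24 and -2.17 for the former, each at an unadjusted p under 0.05, and -0.53 (standard error 0.33) for *Nppa*. *Tnc*, *Spp1* and *Postn* were highest in vehicle replicate 3 and *Srpx2* was higher in it than in any Tributyrin mouse. For *Thbs1* it was the lowest vehicle mouse, at 413.7 normalized counts. Vehicle replicates 1 and 2 had 583.1 and 526.5, and Tributyrin replicate 2 had 399.3. *Bmp10*, an atrial marker, had at most 1 read in any library. Without vehicle replicates 1 or 2 the log2 fold change of *Srpx2* was -0.65 or -0.52, and that of *Thbs1* was -0.57 or -0.66. Each of these fits kept the other vehicle mouse with a high atrial sum, so they cannot show what atrial tissue contributed. The part of such tissue in the values of the members was not tested.

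Fibroblast markers summed to 23099 to 25080 with vehicle and 20822 to 24609 with Tributyrin, which overlapped. *Dcn* (0.01, standard error 0.07) and *Pdgfra* (-0.01, 0.10) were level between the groups within their error. The median of the 8 markers was -0.17. *Lum* (-0.31, 0.08) and *Col1a1* had an unadjusted p under 0.05, where 2.28% of all genes were lower at that level. An FDR of 10% was passed by *Col1a1* in edgeR without the filter on low counts (0.653% of genes) and by *Lum* in DESeq2 with a local trend (0.259%). *Col1a1* is also in the transforming growth factor beta list above, with the same value. Macrophage markers were lower in 6 of 6 genes, with log2 fold changes of -0.12 to -0.01, and their sums overlapped (3381 to 4256 and 3253 to 4217). The smooth muscle list was higher in 6 of 6, with *Cnn1* at 0.71 (0.26) and *Myh11* at 0.59 (0.17), and summed to 17018 to 18699 and 18060 to 21720. *Cnn1* and *Myh11* passed an FDR of 10% in edgeR without the filter on low counts, where 0.653% of all genes did.

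Platelets carry thrombospondin 1, and of their 6 markers *Gp1bb* was at 0 in every library. Of the 4 that could be tested, 3 were higher with Tributyrin and 1 was lower, with a median log2 fold change of 0.62. At an unadjusted p under 0.05 there were 0, against 4.25% of all genes. The sum of the 6 was 205.8 to 305.6 with vehicle and 177.8 to 346.3 with Tributyrin. The sums also overlapped for cardiomyocyte markers, by far the most abundant list in this ventricle tissue (1423500 to 1461800 and 1378000 to 1491800), endothelial markers (16424 to 16788 and 15915 to 17244), epicardial and mesothelial markers (310.9 to 734.2 and 428.3 to 625.0) and red blood cell markers (12905 to 18285 and 10039 to 24730, the last in Tributyrin replicate 1). Within the cardiomyocyte list 6 of 8 genes were higher, and at an unadjusted p under 0.05 *Pln* (0.24, standard error 0.08), *Tnnt2* (0.23, 0.09) and *Tnni3* (0.21, 0.08) were higher and *Actc1* (-0.21, 0.09) lower. Of all genes, 4.25% were under that level and 8.91% did not overlap between the groups. The groups did not overlap for *Tnni3* and *Pln*, nor, in lists given above, for *Myh11* (higher), *Lum* and *Fmod* (both lower). Adipocyte markers were near 0, at 9.35 to 74.9 in sum. The part of these lists in the results was not tested.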

How the data were processed

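Stranded mRNA libraries from 6 heart ventricles were sequenced as single-end 50 bp reads. After adapter trimming, quality filtering and removal of rRNA reads, the authors mapped with STAR, tallied genes with htseq-count, and deposited these raw counts without normalization. The submitters' processing notes name cutadapt 1.13, HTSeq 0.6.1p1, DESeq2 1.14.1 and mm10, while how strand was set and which annotation release was used is not stated there. No line lacked a gene (0 lines). Gene names and positions came from GENCODE M21 (GRCm38, the assembly of mm10), which matched 54079 of 54232 identifiers.

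Totals per library were 20369746 to 32734485 counts. Counting error is largest for genes with few reads, such as *Tnc* and *Spp1*, whose spread between mice was also large for their level. No libraries were duplicates, since chi-square per degree of freedom between pairs was 6.67 to 28.22 over genes whose pair summed to 20 or more.

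Groups were compared with edgeR 4.0.16 (quasi-likelihood test, TMM scaling, filterByExpr with minimum count 10 and minimum total 15, Benjamini-Hochberg adjustment over 14133 genes) in R 4.3.3, at an FDR of 10% and also 5%. Normalized counts are counts divided by DESeq2 1.42.0 size factors, and intervals are 95%. Spread percentiles compare genes within 0.5 of a gene's mean log2 CPM. Exact permutation tests used scipy 1.17.1. Alternatives were other scalings and filters, DESeq2 with and without a prior and with a local trend, limma-voom (limma 3.58.1), robust and bias-adjusted forms of edgeR, blocking on replicate number, and dropping single mice. The count models were tested on simulated data.

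The members and lists were chosen with earlier results of these data known. The genes named are the members, the highest and lowest pair of each of the 4 comparison lists that are not markers with their genes at an unadjusted p under 0.05, genes overlapping a member, genes of marker lists whose sum moves with a result, markers at 0, and the 5 genes most like *Thbs1*. *Ccn2*, *Tgfb1*, *Tgfb2*, *Tgfb3*, *Smad7*, *Cd36*, *Cd47*, *Plaur*, *Atf6*, *Dcn*, *Pdgfra*, *Lum*, *Cnn1*, *Myh11*, *Pln*, *Tnnt2*, *Tnni3*, *Actc1* and *Col3a1* were named after their values were seen.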

Additional observations from a re-analysis of the deposited data

How the results depend on the processing

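The count of members past an FDR of 10% was 0 in edgeR under every other scaling, a stricter filter, the robust and bias-adjusted forms, the replicate block and with each mouse left out, and in limma-voom and in DESeq2 with its default trend, with or without a prior. It was 3 without the filter on low counts (*Thbs1*, *Srpx2* and *Postn*, where 0.653% of genes were called) and 2 in DESeq2 with a local trend (*Thbs1* and *Srpx2*, 0.259%). At 5% the main count was also 0. The members at an unadjusted p under 0.05 were 6 without the filter, 5 with the replicate block and 2 to 5 with each mouse left out (5 without vehicle replicate 1), and 2 or 3 in the other settings. The share of all genes was 4.6% without the filter, 5.17% with the block, 4.9% without vehicle replicate 1, 2.68% to 9.56% over the mice left out and 5.65% with library size alone. The cause of these differences was not tested. Members higher with Tributyrin were 3, and 1 to 4 with each mouse left out, the low count being without Tributyrin replicate 2. Members whose groups do not overlap were 2 under each scaling, and 2 to 5 with each mouse left out, where 3 mice against 2 separate more often, in 15.2% to 27.3% of all genes (5 members and 19.5% without vehicle replicate 1).

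*Thbs1*, *Thbs2*, *Thbs3*, *Postn*, *Sparc*, *Tnc* and *Srpx2* kept their direction in every setting run. *Thbs4* was at -0.0239 with limma-voom, and from -0.16 to 0.43 with each mouse left out. The ranges were -1.57 to 0.17 for *Spp1*, -0.0259 to 0.65 for *Srpx*, -0.20 to 0.47 for *Ccn4*, -0.0416 to 0.23 for *Lox*, -0.0703 to 0.44 for *Id1*, -0.13 to 0.0031 for *Creld2* and -0.0678 to 0.0131 for *Pdia6*. The other list genes that were recomputed kept their sign.

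Deviations of log2 CPM from the group means correlated at 0.214, 0.037 and 0.015 between same-numbered mice. Of these, 1 was over 0.1, so the numbers were not taken to pair the mice. With the replicate number as a block, the log2 fold changes of *Thbs1* and *Srpx2* were -0.69 and -0.58 with 0 members past 10%. Library size alone moved the median of all genes by less than 0.1 on the log2 scale. Depth is a limit for *Tnc* and *Spp1*, which had 6 to 58 reads a library, as is their spread between mice. *Spp1*, *Srpx*, *Thbs3* and *Tnc* were not tested under the filter of a mean CPM of at least 5.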
